A study of Rattus norvegicus with 12 samples.

Results

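The genes described are 7 symbols used to mark cholangiocytes, the epithelial cells that line the bile ducts, and cells of the ductular reaction, taken by name from a table of RPKM values (read counts scaled to transcript length and library total). Of these, 5 matched a row among the 14691 genes with values: KRT19, EPCAM, SPP1, CFTR and CD24. KRT7 and SOX9 are not analysed here. Symbol and gene description were the only identifiers that the table gave.

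RNA of whole liver was sequenced from male Sprague Dawley rats, 4 to 5 months old, at 0, 4, 12 and 24 h after partial hepatectomy (PH). All rats carried a duodenal catheter and received saline through it, and Control rats had a sham biliary fistula 24 h before PH. In both other groups a biliary fistula, a catheter that drains the common bile duct, was placed 24 h before PH, and 1 of these groups also received duodenal sodium taurocholate, a bile acid, from 12 h before PH. Each group and time is 1 column of the table, which the authors combined from a sequencing run on 1 rat and a run on pooled RNA of 3 rats. The fistula groups are called BF and BA as in the column titles. The sources conflict on which of them received taurocholate: the study's text uses BF for drainage and BA for bile acid, and the sample descriptions attach the infusion to the columns titled BF. CYP7A1, the rate-limiting enzyme of bile acid synthesis, had RPKM of 386.93 in BF, 54.92 in BA and 60.0 in Control when PH was done (0 h). Bile acids that return from the intestine are known to repress CYP7A1, so its high value in BF runs the way of the column titles as the study's text uses them, but no column was assigned to a treatment from it. The comparison of both fistula groups together with Control does not depend on this conflict.

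Cholangiocytes modify bile by secreting chloride and bicarbonate and by taking up bile acids, and they proliferate when bile flow is obstructed or after loss of liver tissue. KRT19 encodes a keratin of simple and ductal epithelia, EPCAM a cell adhesion molecule of the cholangiocyte surface, and SPP1 the secreted phosphoprotein osteopontin. CFTR is the apical chloride channel that drives ductal bicarbonate secretion, and CD24 is a surface glycoprotein of immature and biliary epithelial cells. EPCAM, KRT19 and CD24 are also expressed by intestinal epithelium, and CD24 and SPP1 by leukocytes.

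The promoters of EPCAM and SPP1 are shown because EPCAM was the gene called after PH and SPP1 had the largest estimate for the fistula, although it was not called. They are RefSeq sequences of the rat build GRCr8, 250 bases before and 50 bases from the start site, and 4 of the 5 genes had one. Capitals mark matches to 3 motifs searched on both strands: the AP-1 site TGANTCA, the RBPJ core TGGGAA and the TATA box TATAAA.
EPCAM, chr6:12649629-12649928, minus strand: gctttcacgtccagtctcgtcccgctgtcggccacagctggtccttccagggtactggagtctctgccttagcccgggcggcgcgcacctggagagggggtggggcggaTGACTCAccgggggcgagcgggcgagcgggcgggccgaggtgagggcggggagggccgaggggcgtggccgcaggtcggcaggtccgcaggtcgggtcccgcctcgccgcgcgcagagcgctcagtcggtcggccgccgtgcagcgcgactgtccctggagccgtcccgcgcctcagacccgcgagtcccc
SPP1, chr14:5619755-5620054, minus strand: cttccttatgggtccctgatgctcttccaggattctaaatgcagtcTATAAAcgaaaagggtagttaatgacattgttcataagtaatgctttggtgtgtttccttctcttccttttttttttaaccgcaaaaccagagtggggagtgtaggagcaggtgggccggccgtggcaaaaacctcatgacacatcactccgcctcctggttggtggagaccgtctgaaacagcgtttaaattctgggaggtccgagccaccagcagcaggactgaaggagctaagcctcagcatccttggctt
The EPCAM promoter held 1 AP-1 match, which reads the same on both strands, starting at position -141 from the start site. A match to this motif occurs in 7.33% of 33469 promoters of the same length. In the SPP1 promoter there was a TATAAA match at -204, a motif found in 14.2% of promoters. The SPP1 start site of this table lies inside the annotated span of the gene, which extends further upstream. No match to the RBPJ core, present in 25.7% of promoters, or to the other 2 motifs was found for CFTR and CD24. These matches are letters in a sequence, and binding was not measured.

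RPKM values are scaled per transcript length, so levels can be compared between genes. The ductal genes were low in whole liver. EPCAM had the highest median over the 12 columns, 6.72 RPKM, followed by SPP1 with 5.44, KRT19 with 1.74, CD24 with 1.48 and CFTR with 0.105 RPKM. EPCAM was above SPP1 in 9 of 12 columns and KRT19 above CD24 in 7 of 12, so neither pair had a fixed order, whereas CFTR was the lowest of the 5 in 12 of 12. For scale, the sum of KRT8 and KRT18, the keratins that hepatocytes share with cholangiocytes, lay between 180.0 and 650.0 RPKM, and the sum of 11 hepatocyte genes, led by albumin, between 74300 and 343000. In whole liver, fewer cholangiocytes and less RNA per cholangiocyte cannot be told apart.

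**Figure D1:**
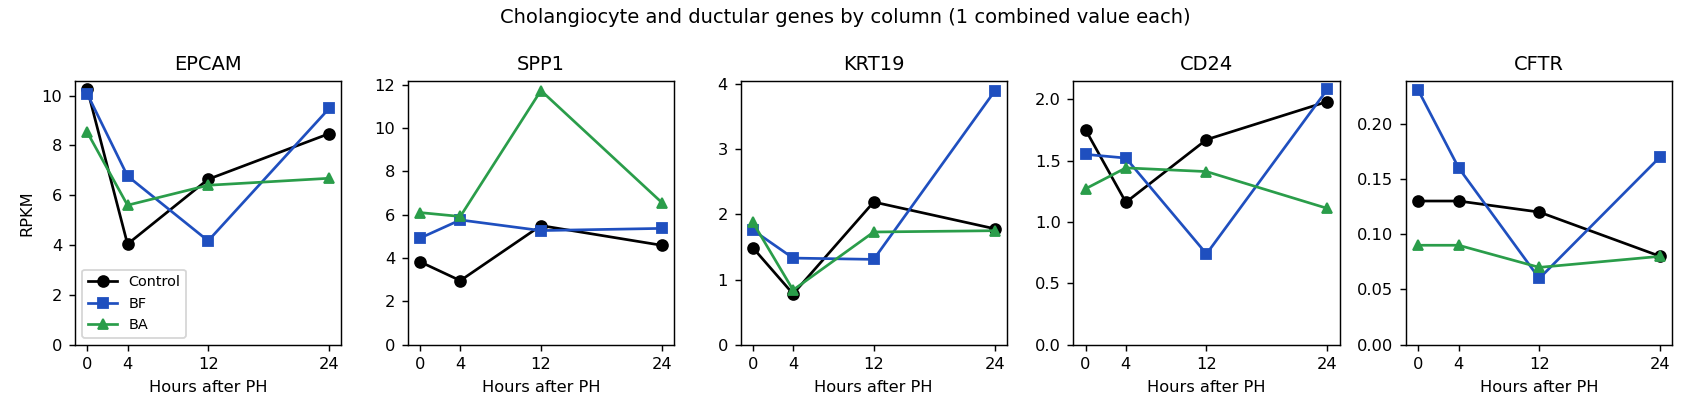
RPKM (vertical axis, from 0, a separate scale for each gene) against hours after PH for the 5 ductal genes in Control (black circles), BF (blue squares) and BA (green triangles). Each point is 1 combined column with no error. EPCAM at 4 h was between 4.04 and 6.77 RPKM, below the 8.53 to 10.27 at 0 h, and SPP1 in BA peaked at 11.73 at 12 h.

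EPCAM fell after PH in all 3 groups. Its Control values at 0, 4, 12 and 24 h were 10.27, 4.04, 6.64 and 8.47 RPKM. In BF the values were 10.07, 6.77, 4.17 and 9.48 RPKM, and in BA 8.53, 5.60, 6.40 and 6.68 RPKM at the same times. The 0 h columns lay above all 4 h and all 12 h columns with no overlap, and Control reached its lowest value at 4 h, BF at 12 h and BA at 4 h. How many of all genes separated in this way was not counted, here or for the genes below.

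The times were compared with limma on log2(RPKM + 1) over all 12 columns, with group and time as additive terms, so that a shift shared by the groups was tested against how it varied over them. EPCAM was lower at 4 h than at 0 h by -0.73 (SE 0.208, 95% interval -1.20 to -0.27, Benjamini-Hochberg adjusted p = 0.0185 over 8459 genes), in 3 of 3 groups. At 12 h the difference was -0.67 (SE 0.208, 95% interval -1.14 to -0.21, limma adjusted p = 0.0358), also in 3 of 3 groups. At 24 h it was -0.21 (95% interval -0.68 to 0.25, limma adjusted p = 0.444), with all 3 groups still below their 0 h value. All genes shifted as well, with median differences of -0.20 at 4 h, -0.12 at 12 h and 0.21 at 24 h. When each column was rescaled on its median, the EPCAM difference was -0.62 at 4 h (limma adjusted p = 0.0454) and -0.56 at 12 h (limma adjusted p = 0.0779), so the 12 h call was lost. The 4 h call was also lost without the Control columns (-0.52, limma adjusted p = 0.141) or without the BA columns (-0.84, limma adjusted p = 0.0643), and the 12 h call with any 1 group left out (limma adjusted p of 0.107 without Control, 0.155 without BF and 0.0716 without BA).

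Changes of this kind were common after PH. At an adjusted p under 0.05, limma called 45.3% of genes at 4 h (32.4% lower), 31.5% at 12 h (22.5% lower) and 36.1% at 24 h. Of the 4 ductal genes in the fit (average of 1 RPKM or more), 1 was called at 4 h, 1 at 12 h and 0 at 24 h, and EPCAM was the gene at both times. These shares are not above the background. Median rescaling changed the balance of calls over all genes, from 1090 higher and 2743 lower at 4 h to 1531 and 2121, from 764 and 1900 at 12 h to 1362 and 1413, and from 2587 and 469 at 24 h to 874 and 1448.

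KRT19 was also lowest at 4 h in Control and BA. Its values at 0, 4, 12 and 24 h were 1.49, 0.78, 2.19 and 1.78 RPKM in Control. In BF they were 1.76, 1.33, 1.31 and 3.89 RPKM, and in BA 1.88, 0.84, 1.73 and 1.75 RPKM. The 3 columns at 4 h lay below the 3 at 0 h without overlap, and BF at 24 h was far above the other 11 columns. The shared difference at 4 h was -0.46 (SE 0.216, 95% interval -0.94 to 0.03, limma adjusted p = 0.11), which did not pass the test. It was -0.57 with adjusted p = 0.0424 by limma without the BF columns. At 12 and 24 h the differences were 0.01 (limma adjusted p = 0.98) and 0.31 (limma adjusted p = 0.29).

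CD24 had the narrowest range of the 4 tested genes on the log2(RPKM + 1) scale, 0.824. As a ratio of its highest to its lowest RPKM, EPCAM was narrower (2.542) than CD24 (2.811). CD24 was at 1.75, 1.16, 1.67 and 1.98 RPKM in Control at 0, 4, 12 and 24 h. The BF values were 1.55, 1.52, 0.74 and 2.08 RPKM, and the BA values 1.27, 1.44, 1.41 and 1.11 RPKM. The columns of the 4 times overlapped, with the lowest value in BF at 12 h and the highest in BF at 24 h. Differences from 0 h were -0.09 at 4 h, -0.17 at 12 h and 0.09 at 24 h, with limma adjusted p between 0.521 and 0.729.

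SPP1 was highest at 12 h in Control and BA. In Control it was at 3.83, 2.96, 5.50 and 4.59 RPKM at 0, 4, 12 and 24 h. BF was nearly flat at 4.92, 5.76, 5.27 and 5.37 RPKM, and BA was at 6.10, 5.92, 11.73 and 6.56 RPKM. All 3 groups were higher at 12 h than at 0 h, although the columns of the 2 times overlapped. The shared difference was -0.04 at 4 h (limma adjusted p = 0.859), 0.45 at 12 h (95% interval 0.04 to 0.86, limma adjusted p = 0.0858) and 0.14 at 24 h (limma adjusted p = 0.581), and none was called. The 12 h value reached limma adjusted p = 0.038 with median rescaling (0.57) and 0.0209 without the BF column at 12 h (0.67).

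CFTR was at or below 0.23 RPKM in every column. It was at 0.13, 0.13, 0.12 and 0.08 RPKM in Control at 0, 4, 12 and 24 h. The BF values were 0.23, 0.16, 0.06 and 0.17 RPKM, and the BA values 0.09, 0.09, 0.07 and 0.08 RPKM. With 2 decimals in the table and the number of reads unknown, differences at this level could not be resolved, and CFTR did not enter the fit.

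The second question was the response to the fistula. SPP1 showed the largest difference of the ductal genes. It was higher in BA than in Control at 4 of 4 times and higher in BF than in Control at 3 of 4, the exception being 5.27 against 5.50 RPKM at 12 h. BA was above BF at 4 of 4 times, by the most at 12 h (11.73 against 5.27 RPKM) and by the least at 4 h (5.92 against 5.76).

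The mean of both fistula groups exceeded Control for SPP1 by 0.50 on the log2(RPKM + 1) scale (SE 0.135, 95% interval 0.19 to 0.80, limma adjusted p = 0.0853). SPP1 was therefore not called, and over the 14 alternative settings the limma adjusted p ranged from 0.0665 to 0.49. BA minus Control was 0.69 (SE 0.156, 95% interval 0.34 to 1.04, limma adjusted p = 0.0925), and BF minus Control was 0.30 (95% interval -0.05 to 0.65, limma adjusted p = 0.289). BF minus BA, the difference between the fistula groups, was -0.39 (95% interval -0.74 to -0.04, limma adjusted p = 0.606). The median of all genes was -0.12 for fistula minus Control, opposite in sign to SPP1.

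**Figure D2:**
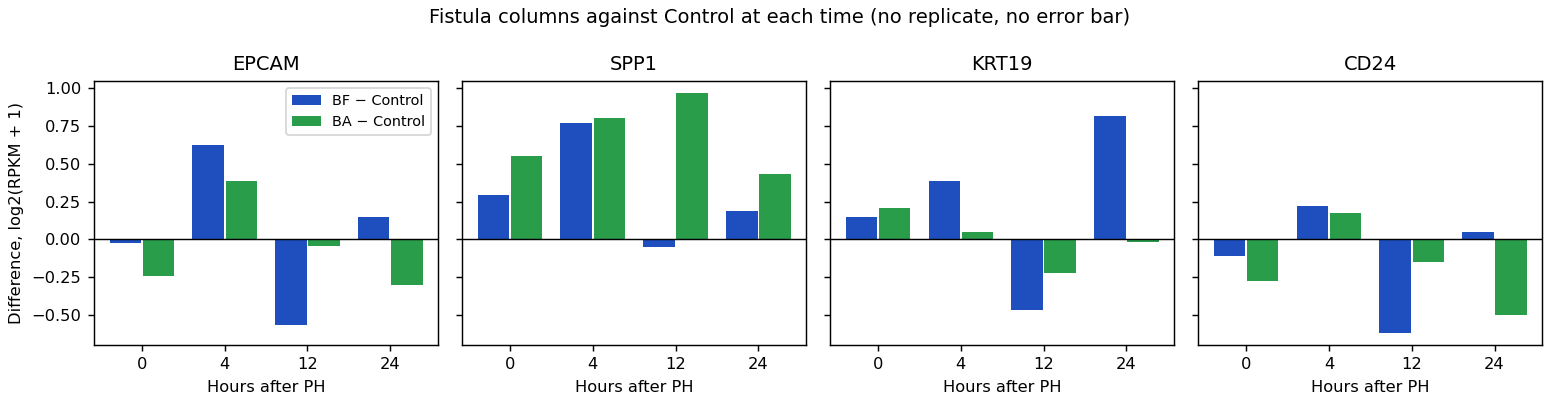
Difference on the log2(RPKM + 1) scale (vertical axis, shared) between BF and Control (blue bars) and between BA and Control (green bars) at 0, 4, 12 and 24 h after PH. Each bar compares 2 columns without replicates. SPP1 was above 0 in 7 of 8 bars, and the other 3 genes lay on both sides of 0.

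EPCAM, KRT19 and CD24 lay on both sides of Control over the times. For fistula minus Control, EPCAM was at -0.00247 (95% interval -0.35 to 0.35), KRT19 at 0.11 (-0.25 to 0.48) and CD24 at -0.15 (-0.47 to 0.17), with limma adjusted p of 0.993, 0.671 and 0.501. These intervals leave room for differences of up to 0.48 in size. At 4 h EPCAM was higher in both fistula groups (6.77 and 5.60 RPKM) than in Control (4.04), and at 12 h it was lower in BF (4.17) than in Control (6.64). No test was possible for a single time. CFTR was higher in BF than in BA at 3 of 4 times, with no value above 0.23 RPKM.

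None of the 4 tested ductal genes was called by limma for fistula minus Control, against 1.31% of all genes (111 of 8459, of which 25 were higher and 86 lower). With median rescaling, 38 were higher and 17 lower. This background was smaller with a single column left out, which also leaves fewer residual degrees of freedom. There were 12 higher and 47 lower without BF at 12 h and 11 higher and 37 lower without BA at 4 h. The background was 0.804% for BF minus Control, 0.0709% for BA minus Control and 0.0118% for BF minus BA, again with 0 of 4 ductal genes called. Without BF at 12 h, BF minus Control had 4 genes higher and 6 lower in place of 27 and 41 and BF minus BA had 3 higher in place of 1, and without BA at 4 h BA minus Control had 0 in place of 6. With such backgrounds, few calls were possible for any 4 genes. At an unadjusted p under 0.05 limma gave 2271, 1852, 1919 and 661 genes in these 4 comparisons. SPP1 was among them in all but BF minus Control, and limma without the trend called 0 of the 4 genes as well.

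**Figure D3:**
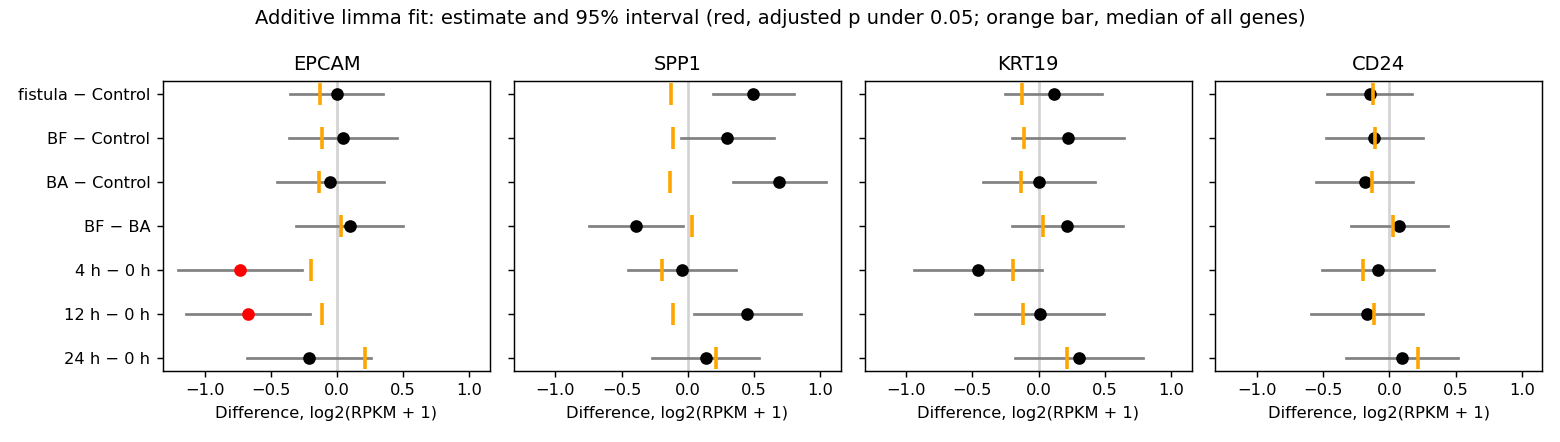
Estimates of the additive limma fit for EPCAM, SPP1, KRT19 and CD24 on the log2(RPKM + 1) scale (horizontal axis), with 95% intervals as grey lines, for 7 comparisons. Red points had an adjusted p under 0.05 and orange bars give the median of all genes. EPCAM at 4 h (-0.73) and 12 h (-0.67) were the 2 points called, and the SPP1 interval for fistula minus Control ran from 0.19 to 0.80.

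The 4 genes had 84 values over the 21 pairs of columns that share a time or compare a later time with 0 h in 1 group. Of these, 3 passed a size of 1 on the log2(RPKM + 1) scale, beside 6.41% of the values of all genes. They were EPCAM at 4 h against 0 h in Control (-1.16), EPCAM at 12 h against 0 h in BF (-1.10) and SPP1 in BF against BA at 12 h (-1.02). The added 1 shrinks ratios of low values, so further pairs were past 2-fold in plain RPKM without passing this cutoff. Among them, KRT19 in BF at 24 h was 2.185 times Control and CD24 in BF at 12 h was 0.4431 times Control. These pairs have no replicate and were not tested.

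In 3 lists of other duct genes 12 genes were tested, of which limma called 6 at 4 h, 1 at 12 h, 1 at 24 h and 0 for the fistula. The share at 4 h is close to the 45.3% of all genes, and those at 12 and 24 h are below the 31.5% and 36.1%. Without the filter on low values, all genes of the 3 lists that matched a row (11, 8 and 15) entered the fit. Of these, 12, 2 and 9 were called at the 3 times. Over the 12388 genes of that setting, 1104 were called higher and 2973 lower at 4 h. At 12 h they were 720 and 1988, and at 24 h 2690 and 592. Among transcription factors and Notch pathway genes, 11 of 14 symbols matched a row and 6 were tested. At 4 h 2 of these 6 fell and 1 rose. NOTCH2, the receptor of biliary cell fate, went from 4.88 RPKM in Control, 5.81 in BF and 6.25 in BA at 0 h down to 2.35, 3.04 and 1.98 RPKM at 4 h, with no overlap. It fell by 0.95 (SE 0.133, limma adjusted p = 0.000902), and NOTCH1 fell by 0.43 (limma adjusted p = 0.00663). ONECUT1 (HNF6), also a hepatocyte factor, was the most abundant of the list and rose by 1.54 at 4 h (SE 0.422, limma adjusted p = 0.0161). For fistula minus Control, HES1, a Notch target, was at -0.46 (limma adjusted p = 0.09), ONECUT1 at -0.72 (limma adjusted p = 0.184), RBPJ at -0.28 (limma adjusted p = 0.149) and NOTCH2 at 0.22 (limma adjusted p = 0.195).

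Of 16 genes of ductal transport, receptors and cilia, 8 matched and 3 were tested. SLC10A2, the bile acid uptake transporter of cholangiocytes and ileum, fell by 1.00 at 4 h (limma adjusted p = 0.00292), from 1.97 to 2.50 RPKM at 0 h to 0.41 to 0.76 RPKM. SLC4A2, the chloride and bicarbonate exchanger, fell by 0.51 at 4 h (limma adjusted p = 0.00522). AQP1, a water channel of cholangiocytes and endothelium, fell by 1.29 at 24 h (limma adjusted p = 0.00454), when it was at 7.73 to 9.55 RPKM against 18.80 to 28.55 at 0 h. For fistula minus Control these 3 genes lay between -0.10 and -0.07.

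Of 17 surface and junction genes, 15 matched and 3 were tested. CLDN4, a tight junction claudin, fell by 1.19 at 4 h (SE 0.149, limma adjusted p = 0.000588) and by 0.78 at 12 h (limma adjusted p = 0.00513). It went from 4.69 RPKM in Control, 5.68 in BF and 5.42 in BA at 0 h down to 2.02, 1.84 and 1.38 RPKM at 4 h, with no overlap. BICC1 and TSPAN8 did not pass the test at any time. Fistula minus Control was 0.13 for BICC1, -0.12 for TSPAN8 and -0.04 for CLDN4.

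The lists of other duct genes had median differences at 4 h of 0.13 for transcription factors and Notch, -0.51 for transport and -0.24 for surface and junction genes, beside -0.20 for all genes and -0.27 for the 4 ductal genes. NOTCH1, SLC4A2 and ITGB5 are expressed by other liver cells too. NOTCH1 was chosen for mention after its values were seen.

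**Figure D4:**
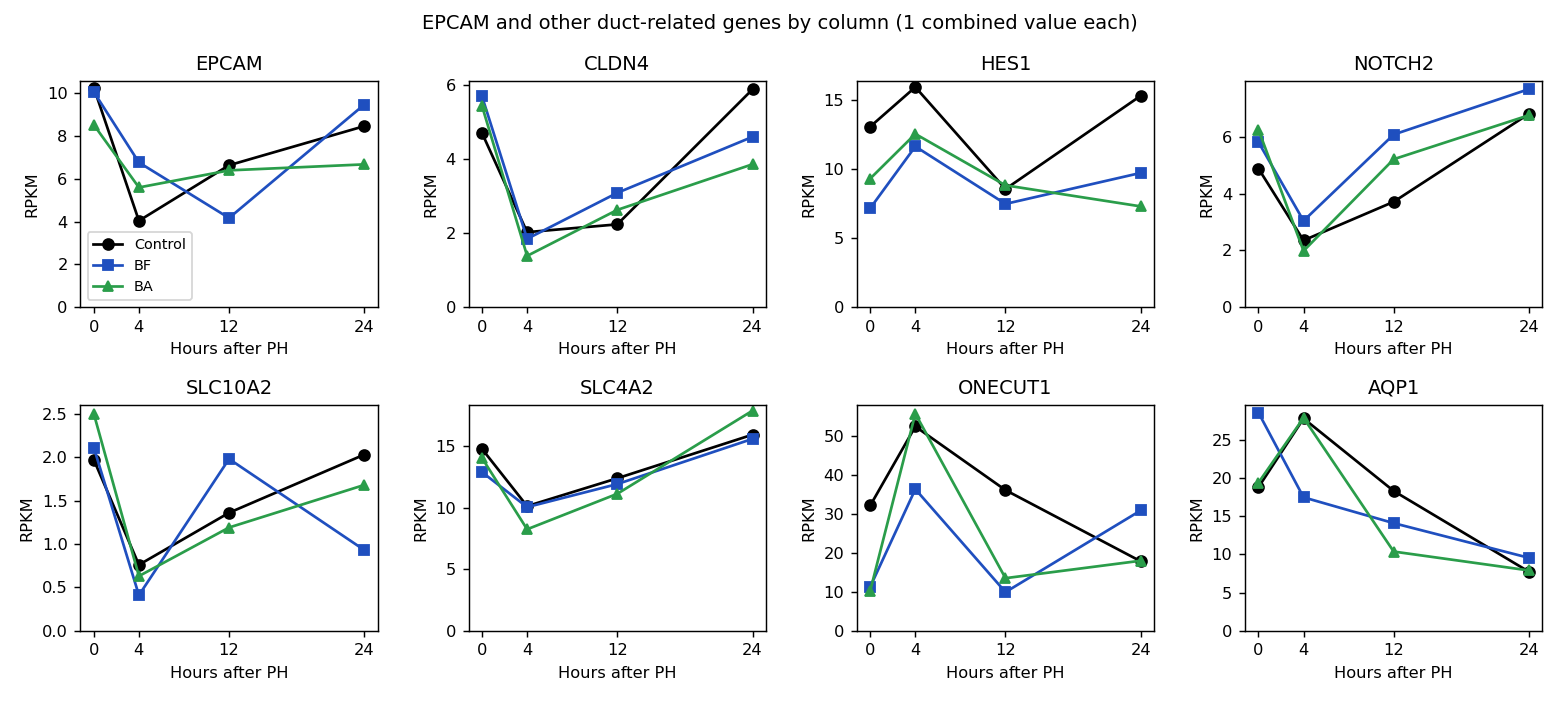
RPKM (vertical axis, from 0) against hours after PH for EPCAM and 7 other duct-related genes in Control (black circles), BF (blue squares) and BA (green triangles), 1 combined column per point. EPCAM, CLDN4, NOTCH2, SLC10A2 and SLC4A2 were lower at 4 h than at 0 h in all 3 groups, ONECUT1 and HES1 were higher, and AQP1 was below 10 RPKM at 24 h.

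Osteopontin acts through integrins and CD44, and 5 of 7 receptor symbols matched, of which 3 were tested. ITGB1, the most abundant, rose by 0.51 at 4 h, 0.49 at 12 h and 0.81 at 24 h (limma adjusted p of 0.00508, 0.00987 and 0.00104). ITGB5 fell by 0.99 at 4 h and 0.85 at 12 h (limma adjusted p of 0.00448 and 0.0134), and ITGAV passed at none of the times. Fistula minus Control was -0.10 for ITGB1, -0.03 for ITGAV and 0.02 for ITGB5, with limma adjusted p of 0.432, 0.863 and 0.935. Of the hepatocyte keratins, KRT18 was called higher at 4 h and KRT8 at 24 h, and for fistula minus Control KRT8 was at 0.23 and KRT18 at 0.07 (limma adjusted p of 0.553 and 0.889).

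The ductal genes varied together only in part. Over the 12 columns, Pearson's r on the log2(RPKM + 1) scale was 0.732 between EPCAM and CD24 (Spearman's rho 0.657), 0.623 between KRT19 and EPCAM (rho 0.594) and 0.533 between KRT19 and CD24 (rho 0.552). SPP1 stood apart, with r of 0.03 to EPCAM, 0.252 to KRT19 and -0.08 to CD24. These are descriptions, since the columns share times, groups and scale. Of 4836 genes that could be ranked, those most like EPCAM were LIMD2 (r = 0.873), CLUAP1 (0.854) and PYCARD (0.852). Those most like KRT19 were CBR1 (0.878), RDH11 (0.859) and PANX1 (0.854), all 3 highest in BF at 24 h. For SPP1 they were PZP (0.849), SERPINA11 (0.794) and AK1 (0.772), all 3 highest in BA at 12 h. For CD24 they were CAR2 (0.809), RETNLG (0.781) and CCL6 (0.769).

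Genes of other organs were high in some columns, and 1 column stood apart in scale. The columns summed to between 727435 and 785092 RPKM, except BA at 4 h with 982826, where albumin took 30.9% against at most 13.4% elsewhere. Pancreatic acinar genes with a median under 2 RPKM summed to 156.2 RPKM in BF at 12 h and to 0.98 to 4.06 elsewhere, and 16 of 18 were highest there, while the acinar factor PTF1A was at 0 in all columns. Intestinal epithelial genes with a median under 2 RPKM summed to 29.95 RPKM in BF at 24 h, 19.55 in Control at 0 h and 17.79 in Control at 12 h, against 1.04 to 6.31 in the other 9 columns. Of these 17 genes, 14 were highest in BF at 24 h.

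KRT19 had its highest value, 3.89 RPKM, in BF at 24 h and its second highest, 2.19, in Control at 12 h, columns in which the intestinal sum was also high. In Control at 0 h, where that sum was high too, KRT19 was at 1.49 RPKM, rank 8 of 12 from the highest. Over the 12 columns the r of KRT19 with that sum was 0.724 (rho 0.615), beside 0.621 for CD24, 0.513 for EPCAM and 0.04 for SPP1. Without the 3 columns, KRT19 was at 0.14 for BF minus Control (limma adjusted p = 0.818), compared with 0.22 in all 12 (limma adjusted p = 0.509), and its 24 h difference was 0.04 in place of 0.31. EPCAM was highest in Control at 0 h, where the intestinal sum was 19.55 RPKM. In BF the sum was 1.22 RPKM at 0 h and 1.38 at 4 h, when EPCAM was at 10.07 and 6.77 RPKM. Without the 3 columns the EPCAM difference was -0.63 at 4 h (limma adjusted p = 0.116) and -0.73 at 12 h (limma adjusted p = 0.156). Without BF at 12 h it was -0.40 at 12 h (limma adjusted p = 0.121). SPP1 for fistula minus Control was 0.55 without the 3 columns (limma adjusted p = 0.49) and 0.58 without BF at 12 h (limma adjusted p = 0.0681). The part of other organs in the ductal genes was not tested.

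**Figure D5:**
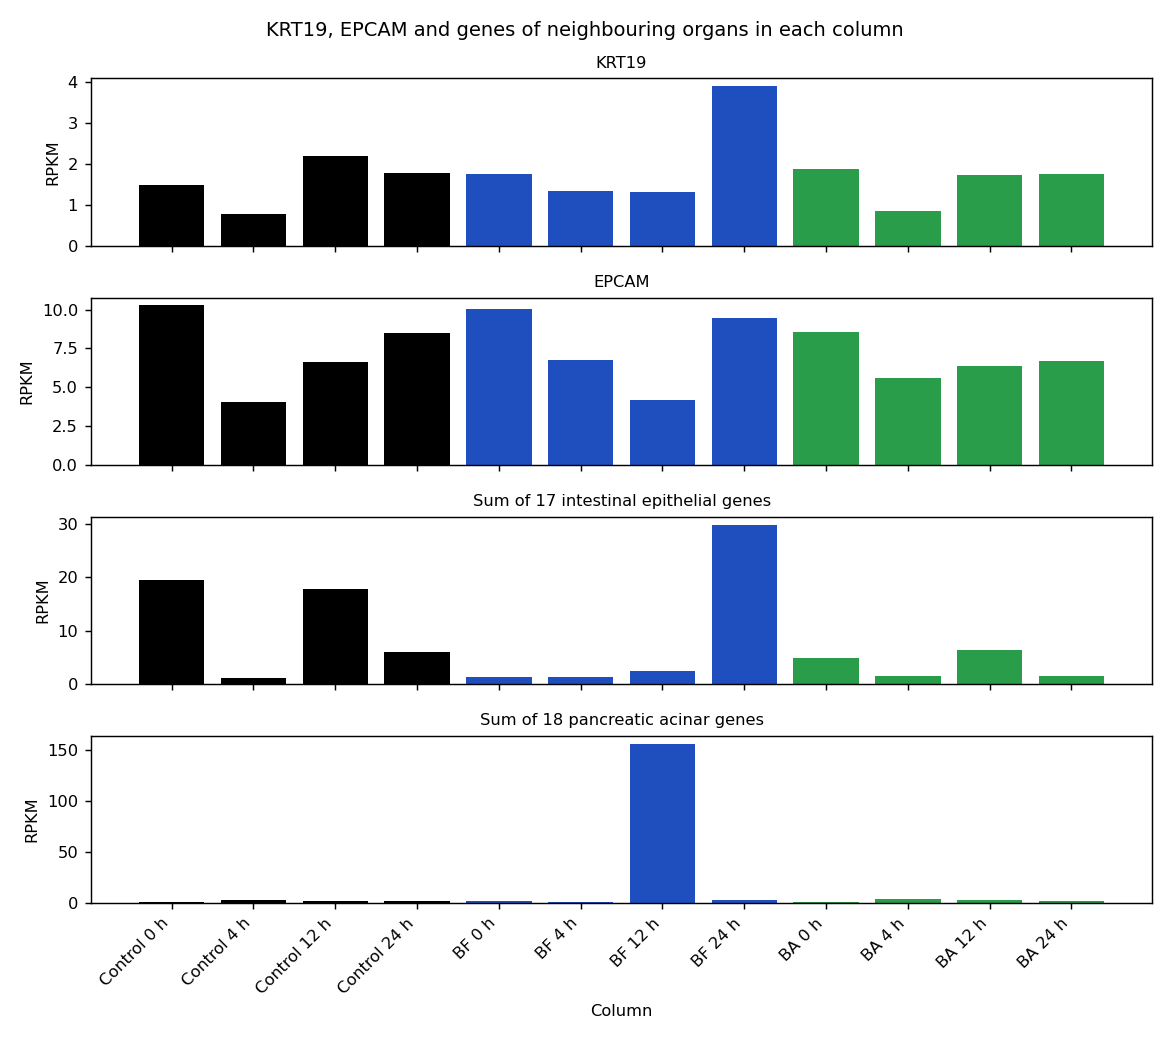
RPKM (vertical axes, from 0) in each of the 12 columns (horizontal axis; Control black, BF blue, BA green) for KRT19, EPCAM, the sum of 17 intestinal epithelial genes and the sum of 18 pancreatic acinar genes, each with a median under 2 RPKM. KRT19 and the intestinal sum were both highest in BF at 24 h (3.89 and 29.95 RPKM), and the acinar sum was 156.2 in BF at 12 h.

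The sums of other cell type lists also moved between columns. Macrophage genes, 12 of 14 found and led by CLEC4F, summed to 311 to 522 RPKM, stellate cell and fibroblast genes (11 of 12, TIMP1) to 96.5 to 158, endothelial genes (4 of 10, LYVE1) to 44.3 to 68.7 and erythroid genes (3 of 6, HBB) to 102 to 289. Mesothelial genes (5 of 6, GPM6A) ranged from 2.98 in Control at 0 h to 20.2 in BF at 24 h, and neutrophil genes (8 of 9, S100A9) from 3.4 in Control at 0 h to 65.5 in Control at 12 h. B cell genes (3 of 4, CD79B) summed to 0.27 to 2.05. The full acinar list, 21 of 26 found and led by SPINK1, summed to 518 to 1290 RPKM, and the full intestinal list, 21 of 26 and led by APOA4, to 315 to 924. Macrophages can express SPP1, and their sum in BA was 403.5, 521.7, 314.7 and 385.3 RPKM at 0, 4, 12 and 24 h. CD14 alone was at 139.34 RPKM in BA at 4 h, so the sum follows a few abundant genes. The neutrophil sum in Control, BF and BA was 3.4, 23.42 and 23.12 RPKM at 0 h and 41.43, 40.86 and 57.8 at 4 h. At 12 h it was 65.53, 51.1 and 52.91, highest in Control, and at 24 h it was 28.07, 36.68 and 55.05. Fistula minus Control was 0.96 for S100A8 of neutrophils (limma adjusted p = 0.131) and 0.81 for DCN of fibroblasts (limma adjusted p = 0.0832), both named after their values were seen. LRAT of stellate cells, in the same list as DCN, was at -0.72 (limma adjusted p = 0.0359). It was the only gene of that list called for this comparison, and it was lower. At 12 h, but not at 4 h, macrophage, stellate cell and fibroblast, and endothelial markers were called lower more often than all genes. At 12 h limma called 6 of 12 macrophage genes lower (median of the list -0.49), 5 of 10 stellate cell and fibroblast genes lower and 1 higher (median -0.31) and 2 of 4 endothelial genes lower (median -0.26), beside 22.5% of all genes. At 4 h the lower calls were 2 of 12, 3 of 10 and 1 of 4, beside 32.4%. Of 11 hepatocyte genes, 3 were called lower and 1 higher at both times (median -0.34 at 4 h and -0.40 at 12 h). Other lists went the other way. Of 2 tested neutrophil genes, 2 were called higher at both times, and 1 of 2 tested mesothelial genes was called higher at 12 h. The part of these cells in the ductal values was not tested.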

How the data were processed

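Total RNA of whole liver was made into poly(A) libraries with a TruSeq kit. The authors deposited RPKM, rounded to 2 decimals, and each of the 12 columns combines 2 sequencing runs that cover 4 rats. The study's supplement says that the 4 animals were averaged by RPKM. Whether the pooled run counted for more than the single rat, and the role of the builds in the submitters' processing notes (which name Bowtie 0.12.2 and CASAVA), are not given in the sources used here, and the depth is unknown. RPKM divides by library totals, so very abundant genes lower the others.

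Of 14692 genes listed, 1 had no value, 2303 were at 0 throughout and 8459 had a mean of at least 1 RPKM. These entered limma 3.58.1 (R 4.3.3, trend) on log2(RPKM + 1), with group and time as additive terms (6 residual degrees of freedom) and Benjamini-Hochberg adjustment over all of them, at a threshold of 0.05. The fit was tested on simulated data with independent normal noise and a shift shared by all times. Single columns that stand apart, as in these data, were not simulated. With 1 column per group and time and no replicate, p-values measure how a shift varied over times or groups. Members and lists were chosen with earlier results of these data known, and the intestinal list was drawn up after some of its values were seen. Named genes were all members, the most abundant gene and up to 4 with the largest fistula difference in each duct list and the receptor list, KRT8 and KRT18, the most abundant gene and any marker at 0 throughout for each cell type, and the 3 genes most like each member. Genes that a list count singles out are named too. 1 item is not reported here. Alternatives were pseudocounts of 0.1 and 5 RPKM, no filter, 3 scalings, limma without the trend, and columns, times or groups left out. Leaving out BA at 4 h or the 3 columns with intestinal genes, and scaling without albumin, were chosen after seeing the data. Tables were made with Python 3.11.15 and pandas 2.3.3.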

Additional observations from a re-analysis of the deposited data

Results flagged for a closer look

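Some ductal genes had changes after PH of opposite sign in different groups. Each value is the difference between the groups in their log2(RPKM + 1) change from 0 h. Each group has 1 column per time, so these differences were not tested. In several of them 1 group barely changed. KRT19 in BA at 24 h (-0.07), SPP1 in BA at 4 h (-0.04) and CD24 in BF at 4 h (-0.02) are examples. In others both groups changed, as for KRT19 at 12 h in Control (0.36) and BF (-0.26). For KRT19, Control exceeded BF by 0.614 and BA by 0.435 at 12 h. At 24 h Control exceeded BA by 0.226 and BF exceeded BA by 0.892, with the BF column at 24 h holding the highest intestinal sum (29.95 RPKM). For SPP1 at 4 h, Control minus BF was -0.478 and BF minus BA was 0.228. For CD24 at 4 h, Control minus BA was -0.453 and BF minus BA was -0.121. At 12 h these CD24 differences were -0.129 and -0.638, and at 24 h they were 0.221 and 0.378. The 12 h value for BF comes from the column with the acinar sum of 156.2 RPKM. A cause was not tested for any of them.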

How the results depend on the processing

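Of 380 values of single ductal genes under an alternative, 366 kept their side of the threshold, 11 lost a call and 3 gained one. The sign changed in 34, all of them uncalled estimates of at most 0.169 in size in the report's fit. Of 195 counts, 175 stayed within 1.5 times. No ductal gene was called in the 4 group comparisons under any alternative run. The count of ductal genes called at 4 h (1) was 0 without Control at 0 h, Control at 12 h and BF at 24 h, and 0 to 2 with 1 group left out, being 0 without Control or BA and 2 without BF. At 12 h (1) it was 0 without the filter, with columns scaled to the same sum and without those 3 columns, and 0 to 0 with 1 group left out. Median rescaling and leaving out BF at 12 h also lost EPCAM at 12 h but called SPP1, so the count stayed at 1. Genes of the other duct lists called numbered 6 at 4 h and 12 without the filter, where more genes of these lists entered the fit. At 12 h there was 1, with 2 without the filter, 2 without BF at 12 h and 0 to 1 with 1 group left out (0 without BF). At 24 h there was 1, with 9 without the filter, 2 with median rescaling and 0 without the 3 columns. Ductal values past 1 on the log2 scale with the pseudocount added (3) numbered 9 at a pseudocount of 0.1, 0 at 5 and 5 with median rescaling. Over all genes, calls for fistula minus Control were 111 in the report's fit, 0 higher and 4 lower without the filter, 48 higher and 378 lower when scaled without albumin, and 1 higher and 2 lower without the 3 columns. Without the filter more genes were adjusted over, and with columns left out fewer residual degrees of freedom remained. The cause of the other changes was not tested. The additive fit compares groups within times and times within groups, and no replicate numbers pair the columns further. Depth is unknown.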
